A study of Mus musculus with 29 samples.

Results

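The genes described here encode actin and the proteins that bind it: the cytoplasmic actins Actb and Actg1, the monomer binders Tmsb4x, Tmsb10 and Pfn1, the filament-severing factor Cfl1, the Arp2/3 subunits Arpc2 and Arpc3, the coronin Coro1a and the filament-bundling protein Lcp1. They are 10 of the 54838 genes in the deposited table and were picked by symbol, each matching a single row. The choice was made with earlier results of these data in view, and it used the difference between the groups. The group differences of these 10 genes are therefore given as a description.

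The 29 libraries came from single splenocytes, labelled T cells, of OT-1 mice, whose transgenic T cell receptor recognises an ovalbumin (OVA) peptide. In 21 cells the T cell had interacted for 3 h with antigen-presenting cells (APC) presenting OVA, and in 8 cells for 3 h with APC presenting nothing. Strain, tissue and time were shared by both groups, and the sources used here give neither the age and number of the mice nor the kind of APC. No mouse, culture or day is named, so each group counts as 1 sample, no test between groups can be made, and cells are called OVA-1 to OVA-21 and nothing-1 to nothing-8, in which the number is only a name.

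T cells keep a dense actin cortex beneath the plasma membrane. When the receptor is engaged, filaments are disassembled at the centre of the contact with the APC and built at its edge, and the resulting flow organises the immunological synapse. Thymosins and profilin hold the pool of actin monomers, cofilin severs old filaments, the Arp2/3 complex starts branches on existing ones, coronin 1A binds filaments and the Arp2/3 complex, and plastin-2, the product of Lcp1, cross-links filaments into bundles.

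Expression is in TPM, a measure of transcripts relative to their length that the authors scaled to a sum of 1000000 in each library. That sum includes 92 ERCC spike-in RNAs, so gene values are low where cellular RNA was scarce. Spike-ins took a median of 84.9% of TPM in OVA cells (range 5.58% to 97.7%) and 87.8% in nothing cells (14.8% to 99.4%). Mitochondrial genes took a median of 2.80% of TPM in OVA cells (0.00387% to 56.0%) and 0.42% in nothing cells (0.00147% to 40.5%). Detection meant 1 TPM or more. The number of genes found per cell ranged from 233 to 4180 (median 855) in OVA cells and from 92 to 6385 (median 795) in nothing cells. Because 97.3% of all gene values were exactly 0, including genes every cell uses, a gene at 0 is described as listed at 0 and may have been missed. Few T cell markers were found. Of 15 T cell markers at least 1 was found in 10 OVA cells and 3 nothing cells, and Cd8a was listed at 0 in all 29. The receptor constant genes Trac, Trbc1 or Trbc2 were found in 4 OVA cells and no nothing cell (0 of 8, an upper limit of 37.5%). Of the 15 markers 8 were detected in the OVA group and 5 in the nothing group. Cd3e was at 43.4 and Cd3g at 35.3 TPM in nothing-5, and Cd4 was at 30.5 TPM in nothing-4. In OVA cells Cd3e and Cd4 were listed at 0, Cd3g was at 31.4 TPM in OVA-21 and Cd8b1 at 136 TPM in OVA-13. The neutrophil transcripts S100a8 or S100a9 were found in 13 OVA cells and 5 nothing cells. In most libraries the defining transcripts of the labelled cell type were thus listed at 0.

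Among the members are 2 pairs of related genes. The coding sequences of Actb (chromosome 5) and Actg1 (chromosome 11) have 1128 bases each and differ at 128 of them (88.7% identity), 120 of which are the last base of a codon. Tmsb4x (chromosome X) and Tmsb10 (chromosome 6) have coding sequences of 135 bases that differ at 40 (70.4% identity). The first 120 coding bases of each, from the GENCODE M21 principal transcripts on GRCm38, are printed because the actins gave differences of opposite sign between the groups and the thymosins were found in OVA cells alone, and capitals mark the bases at which the 2 genes of a pair differ (22 for the actins and 32 for the thymosins).
Actb: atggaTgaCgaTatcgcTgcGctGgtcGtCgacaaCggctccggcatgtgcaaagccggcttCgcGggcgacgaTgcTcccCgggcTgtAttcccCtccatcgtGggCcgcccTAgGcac
Actg1: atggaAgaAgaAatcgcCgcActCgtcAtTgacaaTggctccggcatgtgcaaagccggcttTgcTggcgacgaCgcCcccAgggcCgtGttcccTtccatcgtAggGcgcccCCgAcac
Tmsb4x: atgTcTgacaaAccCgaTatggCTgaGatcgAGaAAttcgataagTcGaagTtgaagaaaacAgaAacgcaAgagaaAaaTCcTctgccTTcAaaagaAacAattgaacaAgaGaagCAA
Tmsb10: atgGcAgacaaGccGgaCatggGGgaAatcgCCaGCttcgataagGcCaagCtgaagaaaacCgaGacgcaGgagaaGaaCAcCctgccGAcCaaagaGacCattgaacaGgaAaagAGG

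Over whole transcripts, exact 50-base windows show where a read could belong to more than 1 gene. For Actb 14.2% of windows occurred in a transcript of another gene, for Actg1 56.7%, for Tmsb10 43.5%, for Cfl1 9.11% and for Lcp1 7.46%. For Tmsb4x, Pfn1, Coro1a and Arpc3 the share was 0%, and for Arpc2 it was 0.216%. Between Actb and Actg1 1.60% of the Actb windows were shared, and between Tmsb4x and Tmsb10 none. The Actg1 overlap was largest with processed pseudogenes and the Tmsb10 overlap with the gene model Gm9844, whose values are given with each gene. Read length and the handling of reads with several matches are not stated in the sources used.

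Actin-related transcripts were listed in a larger share of OVA cells than of nothing cells, but not for every gene. At least 1 of the 10 genes was detected in 14 of 21 OVA cells (66.7%, exact Clopper-Pearson 95% interval 43.0% to 85.4%) and in 4 of the 8 cells of the nothing group (50%, 15.7% to 84.3%). These intervals overlap and cover counting error only. At least 3 of the genes were detected in 8 OVA cells and 2 nothing cells, and at least 5 in 3 OVA cells and no nothing cell. OVA-8 had 9 of the 10 genes, OVA-13 had 7, OVA-16 had 5, and nothing-4 had the most of its group, 4. The libraries with many of these genes were also rich in genes overall: OVA cells 8, 13 and 16 had 4180, 2273 and 2320 genes detected and nothing-4 had 6385. All 4 nothing cells without any of the 10 genes had over 90% spike-ins and 92 to 373 genes detected. Among libraries with at least 500 genes detected, 14 of 19 OVA cells and 4 of 4 nothing cells had at least 1 of the 10. Among those with at least 1000 genes, a subset chosen after seeing the data, 8 of 9 and 4 of 4 did.

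**Figure D1:**
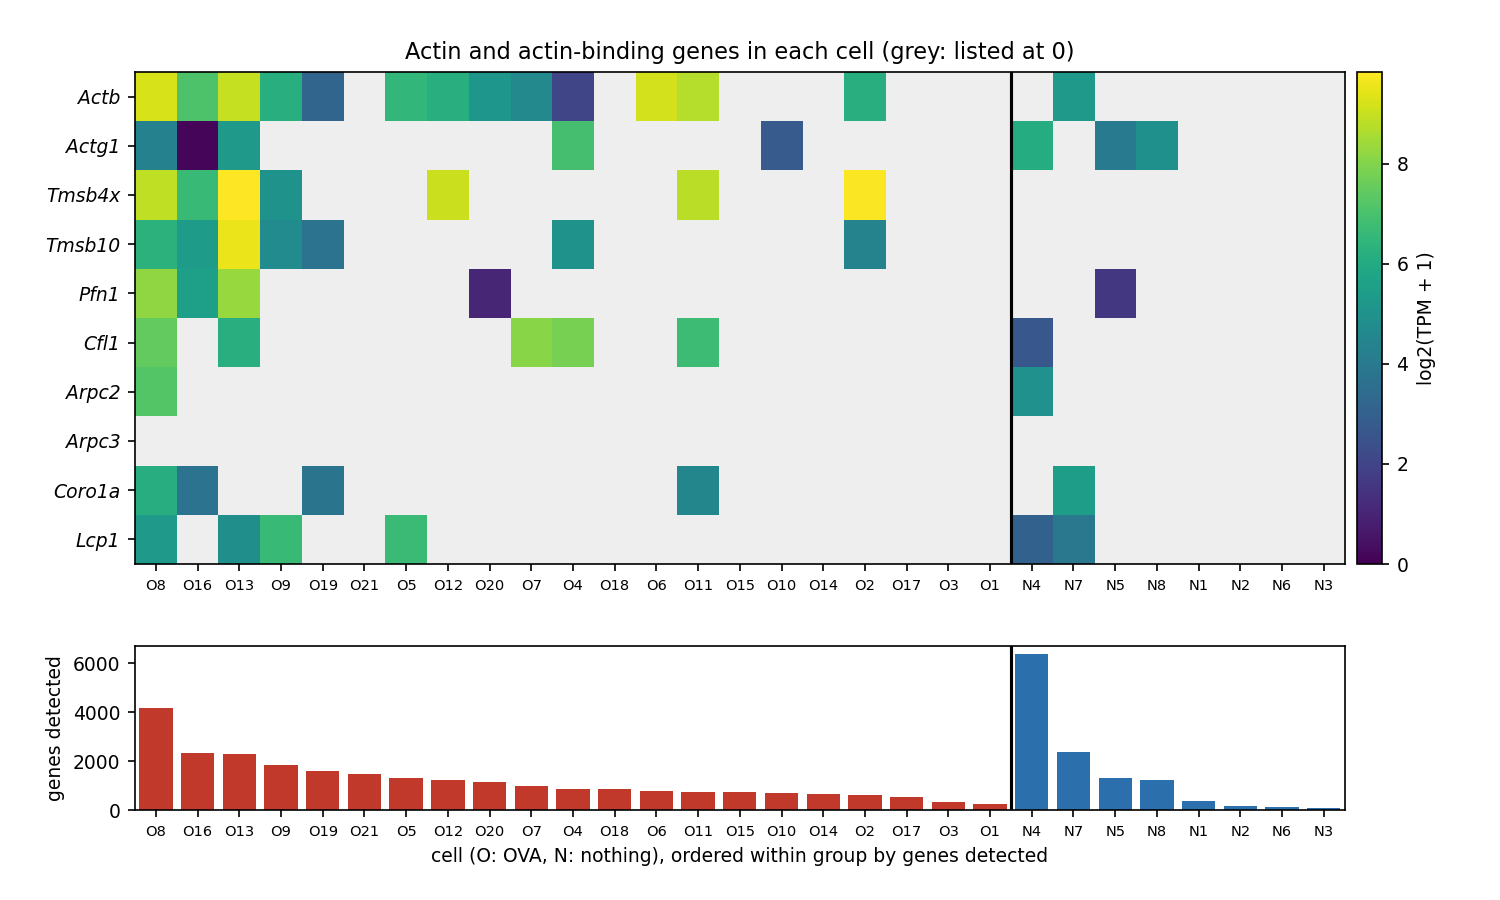
The upper panel shows log2(TPM + 1) of each of the 10 genes (rows) in each of the 29 cells (columns, OVA cells left and nothing cells right of the line, each ordered by genes detected and written as O or N with its number), and the lower panel shows genes detected per cell. Actb fills 13 OVA columns and 1 nothing column, the thymosins fill OVA columns only, Actg1 fills 3 of the 4 gene-rich nothing columns, and Arpc3 is empty.

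Actb, which encodes beta-actin (ENSMUSG00000029580, chromosome 5, 142903115 to 142906754), was the member found in the most cells. Its TPM was 603 in OVA-8, 570 in OVA-6, 500 in OVA-13, 419 in OVA-11 and 136 in OVA-16. It was between 70.4 and 90.7 in OVA cells 2, 5, 9 and 12, at 34.4 in OVA-20, 23.7 in OVA-7, 8.21 in OVA-19 and 3.18 in OVA-4. In the nothing group it was at 37.6 in nothing-7 and listed at 0 in the other cells. The groups overlap, because 8 OVA cells were listed at 0 and the value of nothing-7 lay above those of 4 OVA cells in which Actb was detected. The share of cells was 61.9% (38.4% to 81.9%) in the OVA group and 12.5% (0.316% to 52.7%) in the nothing group. The OVA mean of log2(TPM + 1) was 3.96 and the nothing mean 0.66, a difference of 3.31. Without the spike-ins in the total, Actb reached 3913 TPM in OVA-6 and 3796 in OVA-11, both spike-in-rich libraries, against 639 in OVA-8 and 60.4 in nothing-7. The largest value as deposited and the largest share of cellular RNA thus came from different cells.

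Actg1, which encodes gamma-actin (ENSMUSG00000062825, chromosome 11, 120345690 to 120348542), did not follow Actb. It was detected in 4 OVA cells, at 120 TPM in OVA-4, 38.3 in OVA-13, 19.0 in OVA-8 and 6.11 in OVA-10. A value of 0.113 TPM in OVA-16 lay below the detection threshold. It was detected in 3 nothing cells, at 66.9 TPM in nothing-4, 29.3 in nothing-8 and 15.3 in nothing-5. These are 19.0% (5.45% to 41.9%) and 37.5% (8.52% to 75.5%) of the cells, and the ranges of detected values overlap. The difference was -0.95 on the log2(TPM + 1) scale, the only negative one among the members kept by the filter described next, and its sign depended on scaling: it was -1.12 without spike-ins and 0.34 with size factors, and -0.35 without nothing-4. No nothing cell had both actins, and 3 OVA cells did. In those 3 the ratio of Actb to Actg1 TPM was 31.8 in OVA-8, 13.1 in OVA-13 and 0.0265 in OVA-4, so gamma-actin was the higher of the 2 in OVA-4. With either actin counted, an actin transcript was present in 14 OVA and 4 nothing cells.

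The Actg1 values are uncertain because of processed copies. Gm12715, which holds 51.1% of the Actg1 windows, was at 51.3 TPM in OVA-4 and was detected in no other cell. Gm8399, with 35.6% of the windows, was at 42.7 TPM in nothing-8 and 13.5 TPM in OVA-4. Gm6375, with 10.2%, was at 85.8 TPM in nothing-4, above Actg1 itself there. All of these are cells in which Actg1 was detected, so the copies and Actg1 were found together. Of genes that share Actb windows, Lrrc58 (9.57%) was present in 3 OVA cells and nothing-4 at no more than 16.1 TPM. The Actb pseudogene Gm15725, with 6.73% of the Actb windows, was detected at 2.45 to 5.91 TPM in 4 OVA cells, each of which had Actb at 72.2 TPM or more.

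The actins were also compared in libraries rich in genes alone. Among libraries with at least 1000 genes detected, Actb was found in 8 of 9 from the OVA group and 1 of 4 from the nothing group, and Actg1 in 2 of 9 and 3 of 4. With these 13 libraries alone the difference was 4.52 for Actb and -2.67 for Actg1. Of all genes found in 3 or more of these libraries, 28.0% were higher in OVA cells by at least 1. The share at -1 or less was not computed in this subset, so the Actg1 value has no such share beside it. The nothing cells left out had no member detected, so every detection of that group stayed and the contrast is not a separate result. The subset was chosen after seeing the data, 4 nothing cells are few, and the part of library richness in the contrast was not tested. Over all 29 cells Spearman's rho between Actb TPM and genes detected was 0.52, and between Actb TPM and the spike-in share it was -0.53. Points of one library share its depth, and no test was made.

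**Figure D2:**
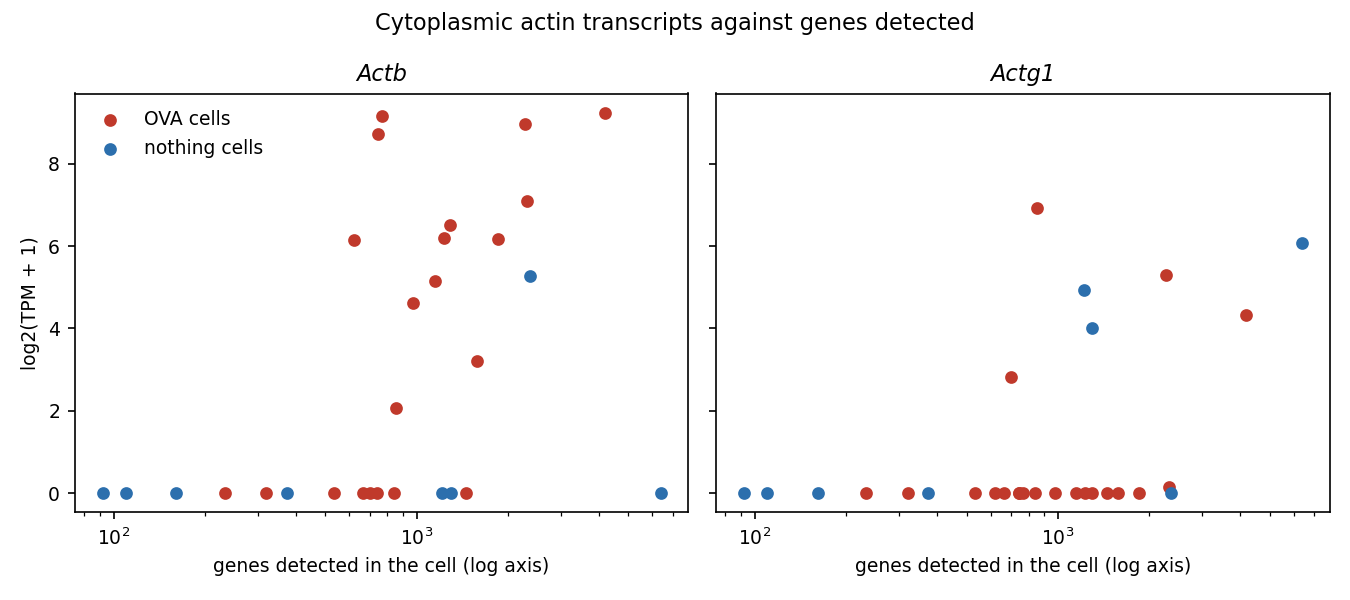
Each point is a cell, with genes detected on a log axis and log2(TPM + 1) of Actb (left) or Actg1 (right) on the vertical axis. Of the 4 nothing cells with at least 1000 genes, 1 lies above 0 for Actb and 3 for Actg1, while of the 9 such OVA cells 8 lie above 0 for Actb and 2 reach the detection threshold for Actg1.

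The thymosins were found in OVA cells. Tmsb4x, which encodes thymosin beta-4, the main sequestering protein of actin monomers (ENSMUSG00000049775, chromosome X, 167207093 to 167209315), was at 908 TPM in OVA-13, 863 in OVA-2, 520 in OVA-12, 474 in OVA-8, 444 in OVA-11, 97.6 in OVA-16 and 31.0 in OVA-9. It was listed at 0 in the other 14 OVA cells and in all 8 nothing cells, a count of 0 with an upper limit of 37.5%. Its share of OVA cells was 33.3% (14.6% to 57.0%), and its mean of log2(TPM + 1) was 2.76 there, against 0 in the nothing group. Where it was found, its median was 474 TPM, against 72.2 TPM for Actb. In OVA cells 2, 12 and 13 it was above Actb, with Actb to Tmsb4x ratios of 0.0816, 0.139 and 0.551. In OVA cells 8, 9 and 16 it was below Actb, with ratios of 1.27, 2.29 and 1.39, and in OVA-11 the ratio was 0.944.

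Tmsb10, which encodes the related thymosin beta-10 (ENSMUSG00000079523, chromosome 6, 72957347 to 72958748), was at 744 TPM in OVA-13 and far lower elsewhere: 78.2 in OVA-8, 42.3 in OVA-16, 31.4 in OVA-4, 25.5 in OVA-9, 20.0 in OVA-2 and 12.3 in OVA-19. It too was listed at 0 in all 8 nothing cells. The difference of means was 1.86, or 1.48 without OVA-13. Of the 7 cells with Tmsb10, 5 also had Tmsb4x, and 5 of the 7 with Tmsb4x had Tmsb10. In those 5 the ratio of Tmsb4x to Tmsb10 was 43.2 in OVA-2, 6.06 in OVA-8, 2.31 in OVA-16 and 1.22 in both OVA cells 9 and 13. Tmsb4x was the higher in all 5. The near copy Gm9844, which holds 33.2% of the Tmsb10 windows, was at 258 TPM in OVA-13 and at 1.08 to 35.1 TPM in 8 further OVA cells, and at 3.01 TPM in nothing-7. Tmsb10 itself was listed at 0 in nothing-7, in OVA-6 (Gm9844 at 1.68 TPM) and in OVA-17 (1.08 TPM), and in OVA-4 Gm9844 was above Tmsb10. Which of the 2 genes the reads in these cells came from cannot be told apart.

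Pfn1 and Cfl1, the partners of actin in monomer exchange and filament turnover, were found in fewer cells. Pfn1, which encodes profilin 1 (ENSMUSG00000018293, chromosome 11), was at 315 TPM in OVA-13, 294 in OVA-8, 46.1 in OVA-16 and 1.07 in OVA-20, and at 1.99 in nothing-5. Its difference was 0.90, and 0.54 without OVA-13. Without OVA cells 8 and 13 together, a subset chosen after seeing the data, the Pfn1 difference was 0.15. Cfl1, which encodes cofilin 1 (ENSMUSG00000056201, chromosome 19), was at 266 TPM in OVA-7, 226 in OVA-4, 174 in OVA-8, 107 in OVA-11 and 69.8 in OVA-13, and at 5.40 in nothing-4, below every OVA cell in which it was found. Its difference was 1.39, and 0.86 without OVA cells 8 and 13 together. In OVA cells 4 and 7 Cfl1 was well above Actb, with Actb to Cfl1 ratios of 0.0140 and 0.0889, whereas the ratio was 3.46 to 7.16 in OVA cells 8, 11 and 13. The Cfl1 copy Gm6180, with 8.11% of the windows, was found in those same 5 OVA cells at 12.1 to 48.5 TPM, and at 14.5 TPM in nothing-7, in which Cfl1 was listed at 0.

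Of the regulators of branched and bundled filaments, Arpc2 and Arpc3 were detected too rarely to compare the groups. Coro1a and Lcp1 gave small differences. Arpc2, a core subunit of the Arp2/3 complex (ENSMUSG00000006304, chromosome 1), was detected at 145 TPM in OVA-8 and 30.6 TPM in nothing-4, the most gene-rich library of each group. Arpc3, another subunit of the complex (ENSMUSG00000029465, chromosome 5), was listed at 0 in all 29 cells. Coro1a (ENSMUSG00000030707, chromosome 7) was at 68.1 TPM in OVA-8, 22.1 in OVA-11, 12.7 in OVA-19 and 12.4 in OVA-16, and at 45.1 in nothing-7. Its difference was 0.17, going to -0.09 without OVA-8 and to 0.87 without nothing-7. Lcp1 (ENSMUSG00000021998, chromosome 14) was at 103 TPM in OVA-5, 97.4 in OVA-9, 38.9 in OVA-8 and 28.4 in OVA-13, and at 14.4 in nothing-7 and 7.28 in nothing-4. Its difference was 0.25, going to -0.03 without OVA-5 and to 0.68 without nothing-7. For Coro1a and Lcp1 single cells thus set the sign.

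**Figure D3:**
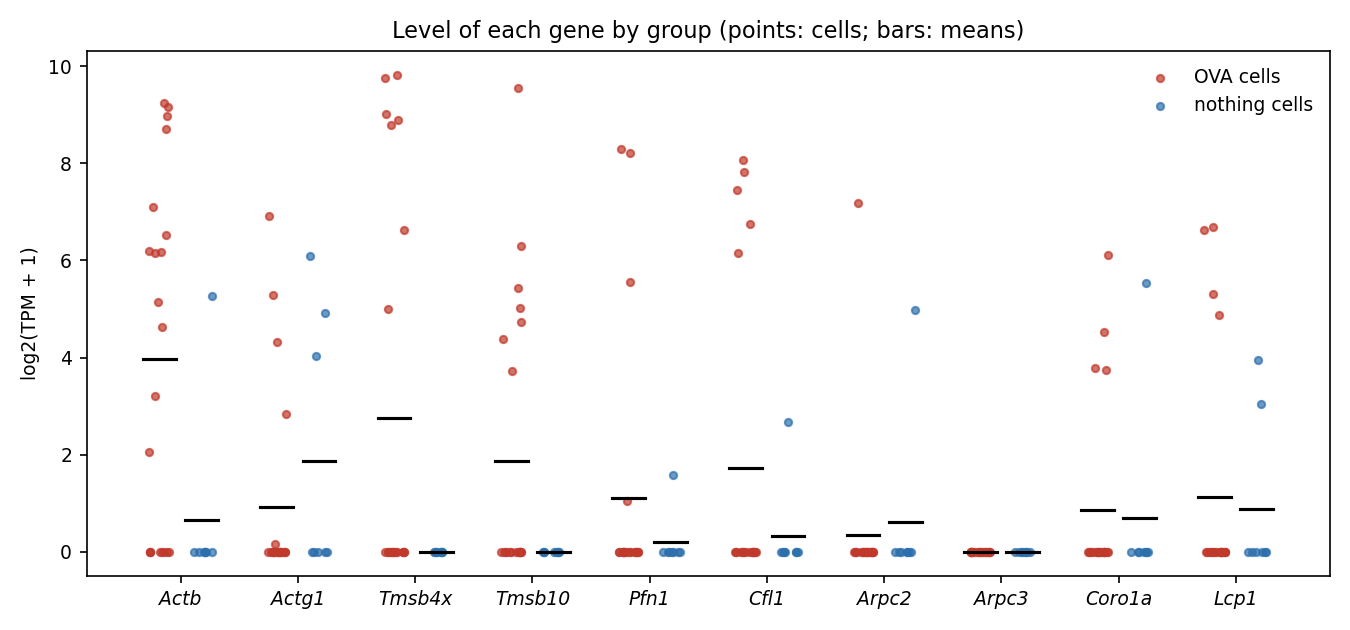
Points are the log2(TPM + 1) values of the 10 genes in OVA cells (red, left of each pair) and nothing cells (blue, right), and black bars are group means. The mean of Actb is 3.96 in OVA cells and 0.66 in nothing cells, Actg1 has the higher mean in nothing cells, and both thymosins are at 0 in every nothing cell.

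The members were also set beside all genes. Only genes found in 3 or more of the 29 cells were kept, 3717 in all, and 8 of the 10 members passed (Arpc2 and Arpc3 did not). Tmsb4x and Tmsb10 passed through OVA cells alone and could not have been lower there. Of the kept members 7 had a higher and 1 a lower mean in OVA cells, beside 2098 higher and 1619 lower of all kept genes. The median difference of the members was 1.15, against 0.10 over all kept genes. Actb, Tmsb4x, Tmsb10 and Cfl1 differed by at least 1, as did 9.31% of all kept genes. No member differed by -1 or less, as did 6.62% of all kept genes. The 2 thymosins were found in OVA cells alone, which held for 25.3% of all kept genes. Because the members were chosen on this contrast, nothing is read from these shares. The 12 kept of 15 housekeeping genes, which serve basic functions of every cell, had a median difference of 1.12, and 6 of them differed by at least 1. The medians of the actin genes and of the housekeeping genes thus lay close together, and the part of overall RNA recovery and of the mitochondrial share in the differences was not tested.

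**Figure D4:**
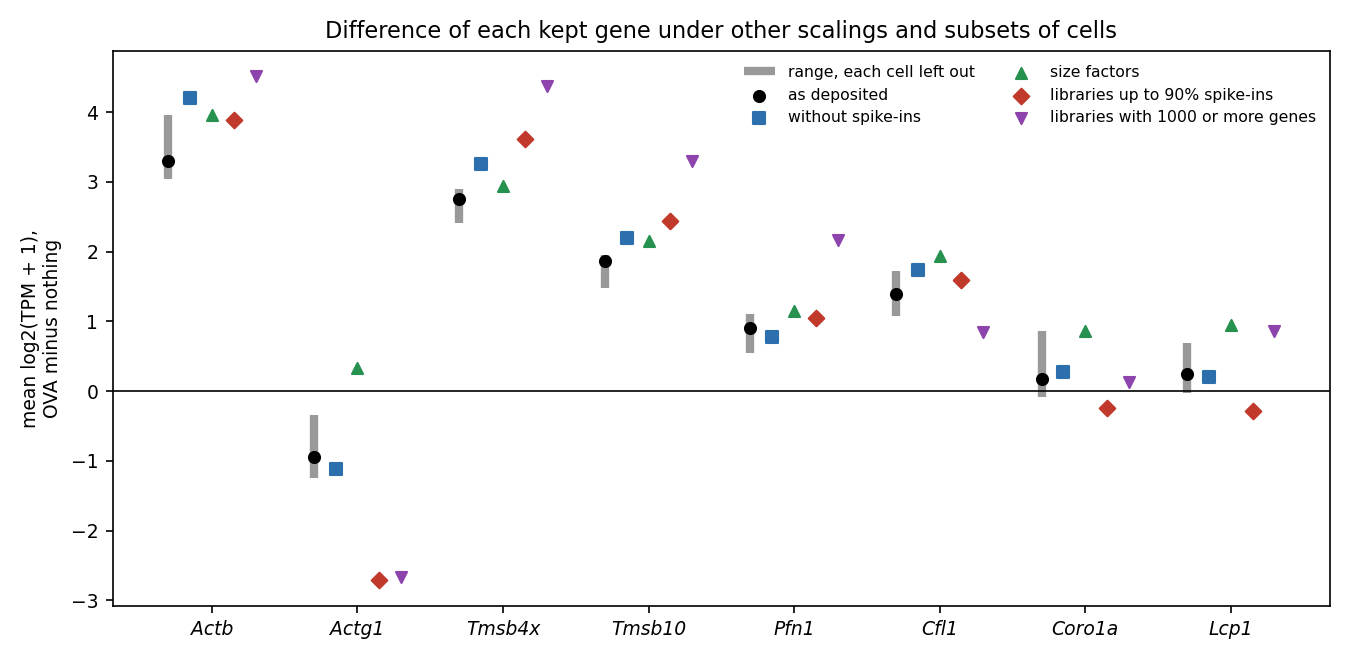
For each of the 8 kept genes, markers show the mean log2(TPM + 1) of OVA cells minus that of nothing cells as deposited, under other scalings and in subsets of libraries, and the grey bar spans the values with each cell left out. Actb, Tmsb4x, Tmsb10, Pfn1 and Cfl1 stay above 0 in all settings drawn (the thymosins, at 0 in every nothing cell, could not fall below it), Actg1 is below 0 except with size factors, and Coro1a and Lcp1 lie on both sides of 0.

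Detection of the members other than the 2 actins was nested within that of Actb in OVA cells. Tmsb4x, Tmsb10, Pfn1, Cfl1, Arpc2, Coro1a or Lcp1 was detected in 12 of 21 OVA cells, and Actb was detected in all 12 of these. Cells with Tmsb4x made up 53.8% of the 13 cells with Actb, as did cells with Tmsb10, while those with Cfl1 made up 38.5% and those with Pfn1, Coro1a or Lcp1 30.8% each. OVA-6 had Actb alone of the 10 genes, at 570 TPM, and OVA-10 had Actg1 alone. The nesting did not hold in the nothing group, in which a member other than the actins was detected in 3 cells and Actb in 1 of these, nothing-7. That cell had Actb, Coro1a and Lcp1, nothing-4 had Actg1, Cfl1, Arpc2 and Lcp1, and nothing-5 had Actg1 and Pfn1. The number of members detected was higher in cells with more genes detected (Spearman's rho 0.76 over 29 cells), and the part of library richness in the co-detection was not tested.

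Cells with markers of another type are given beside these counts. Actb was detected in 9 of the 13 OVA cells with S100a8 or S100a9 and in 4 of the 8 OVA cells without either. It was detected in 4 of 4 OVA cells with receptor constant transcripts (OVA cells 5, 9, 13 and 16). These had 1292, 1850, 2273 and 2320 genes detected. OVA cells 5, 9 and 16 also had 1, 4 and 6 neutrophil markers and 4 erythroid markers each. OVA-8 had 9 of 11 neutrophil markers and no receptor constant transcript. OVA-13 had 3 receptor constant genes, 0 neutrophil markers and 1 NK cell marker at 648 TPM. In OVA-13, with TPM of 1009 for Trac, the thymosins were at 908 and 744 TPM, Actb at 500 and Pfn1 at 315. Neutrophil markers summed to 0 to 20044 TPM in OVA cells (9 of 11 detected, Ly6g and Cxcr2 at 0) and 0 to 3924 TPM in nothing cells (5 of 11 detected, with Ly6g, Ltf, Mpo, Elane, Csf3r and Cxcr2 at 0). Leaving out the 11 libraries with 3 or more neutrophil markers left 12 OVA and 6 nothing cells, with differences of 2.63 for Actb, 1.52 for Tmsb10, 1.84 for Cfl1 and -0.24 for Actg1. In that subset the median over all kept genes was 0.94 and 46.3% of them were higher in OVA cells by at least 1. Nothing is therefore read from the size of these differences. Tmsb4x, Pfn1, Coro1a and Lcp1 no longer passed the filter there. The part of neutrophil RNA in the full comparison was otherwise not tested. Of 13 monocyte, macrophage or dendritic cell markers 4 were found in the OVA group (9 cells, sums of 0 to 549 TPM) and 5 in the nothing group (2 cells, 0 to 118 TPM), with Adgre1, Cd14, Itgax, H2-Aa, H2-Ab1, Xcr1 and C1qa at 0 in both. Actb was present in 7 of the 9 OVA cells with such a marker and in 6 of the other 12. Of 7 erythroid markers 4 were found in the OVA group (6 cells, 0 to 1616 TPM) and 5 in the nothing group (2 cells, 0 to 558 TPM), with Alas2 and Car2 at 0 in both. Actb was present in 5 of the 6 OVA cells with an erythroid marker and in 8 of the other 15. The part of these transcripts in the differences was not tested. A platelet marker was found in 2 OVA cells and in none of the nothing cells, with Pf4 and Ppbp at 0 in all cells. A B cell marker was found in 2 nothing cells and no OVA cell, and an NK cell marker in 1 cell of each group.

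The wider set of actin regulators held 150 genes of 15 roles, without the 10 members. Of these 46 were listed at 0 in every cell, 102 were detected in at least 1 cell and 37 were kept. Of the 37 kept genes 23 had a higher and 14 a lower OVA mean, beside 2098 higher and 1619 lower of all kept genes. The median difference of the 37 was 0.10, the same as over all kept genes. The median was -0.04 without OVA-8 and 0.55 without nothing-4, which had 62 and 33 of the 150 genes detected. OVA-8 accounted for a detection in 30 of the 37 genes and nothing-4 in 21. Of the 37, 1 differed by at least 1 (2.70% of the 37, against 9.31% of all kept genes).

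**Figure D5:**
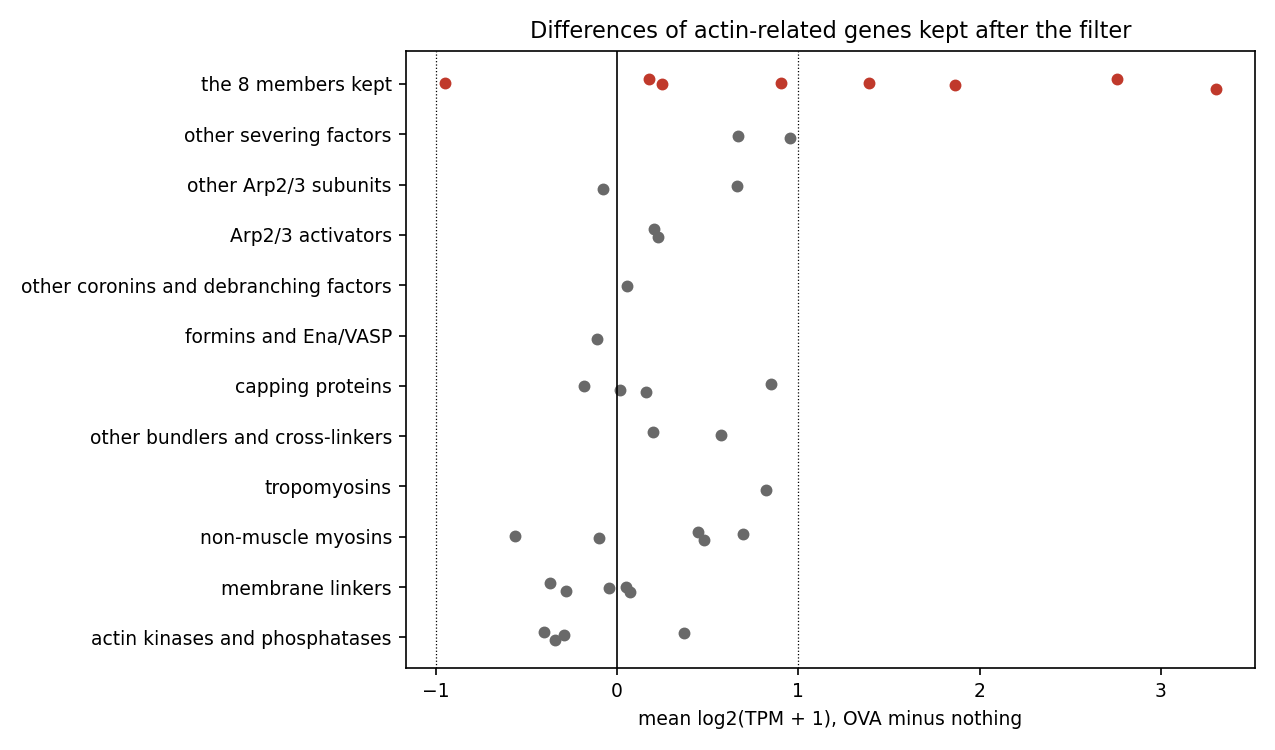
Each point is a gene kept after the filter, placed by its mean log2(TPM + 1) in OVA cells minus that in nothing cells, with the 8 members in red and 29 of the 37 wider genes in grey by role, and dotted lines at -1 and 1. No wider gene drawn lies past 1, while 4 members do, and no gene lies past -1.

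Among severing factors, Dstn, a cofilin relative, was at 148, 141 and 50.3 TPM in OVA cells 8, 6 and 20 and in no nothing cell (0.95), and Gsn, gelsolin, was at 4.64 to 31.1 TPM in OVA cells 6, 8, 16 and 20 and in no nothing cell (0.67). Tpm3, a tropomyosin that coats filaments, was at 190 TPM in OVA-7 and 59.6 in OVA-2 and below 4 TPM in OVA cells 8 and 16 (0.82). The capping protein subunit Capza1 was at 138 TPM in OVA-6 and 125 in OVA-21 and in 3 further OVA cells, and at 9.42 in nothing-7 (0.85). Dstn, Gsn and Tpm3 were found in OVA cells alone, as were 25.3% of all kept genes, so no scaling could turn their sign. Capza1 was at 1.23 with size factors and 1.06 without spike-ins.

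The other Arp2/3 subunits gave 2 kept genes of 8. Arpc1b, a subunit made in blood cells, was at 146 TPM in OVA-6, 25.4 in OVA-8 and 2.80 in OVA-9 and listed at 0 in all nothing cells (0.66, or 0.33 without OVA-6). Actr2, the Arp2 subunit itself, was at 15.5 to 46.0 TPM in OVA cells 5, 8 and 13 and at 30.3 and 1.17 TPM in nothing cells 4 and 7 (-0.08, turning to 0.49 with size factors and to 0.52 when nothing-4 was left out). Their activators Cyfip2 and Wasf2, parts of the WAVE complex, differed by 0.23 and 0.20. The branch-removing factor Gmfg differed by 0.06, by -0.28 without OVA-13 and by 0.85 without nothing-4. The formin Diaph1 differed by -0.11, the myosins Myl12b and Myo5a by 0.69 and -0.56, the cross-linkers Lasp1 and Flna by 0.57 and 0.20, the linkers Ablim1 and Zyx by -0.37 and -0.28, the kinases Rock1 and Rock2 by 0.37 and -0.40, and the capping-related Add1 by -0.18. With size factors the differences of Diaph1, Myo5a, Ablim1, Zyx, Rock2 and Add1 were above 0. Without nothing-4 those of Diaph1 (0.20), Ablim1 (0.35), Zyx (0.34), Rock2 (0.27) and Add1 (0.30) were also above 0. Flna was near 0 without OVA-8 and Wasf2 at 0.03 without OVA-13. For most of these genes 1 library thus set the sign or the size. No muscle actin, other monomer binder or gene of the Srf group was kept.

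The genes whose level over cells was most like that of Actb were sought among genes detected in many cells. The comparison took only 81 of the genes present in at least 10 cells. It skipped predicted models, pseudogenes and transcripts of the mitochondrial genome, so the ranking holds for these 81 alone. Spearman correlations were computed over the 29 cells, on TPM rescaled without spike-ins. The 5 highest were those of Hsp90ab1 (rho 0.61), the ubiquitin-conjugating enzyme Ube2d3 (0.59), the ribosomal protein genes Rpl13 (0.57) and Rpl6 (0.53) and the heat-shock gene Hspa1a (0.54). Hsp90ab1 was detected in 11 cells, of which 10 had Actb. These correlations describe cells that share depth within a library.

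Actin genes are classical targets of the serum response factor, which binds the CArG box. Because the members other than the actins were found in OVA cells only with Actb, promoters of the members were searched for the box on both strands. The RefSeq windows of 300 bases (250 before to 50 after a start, GRCm38.p6) held 13 promoters of 9 members. Actb had no entry. Of the 13 promoters 1 had a CArG box, that of Actg1, as did 1.63% of 32851 promoters. The GC box GGGCGG, on either strand and with overlaps allowed, was in 12 of the 13 and in 35.7% of all. Tmsb10, Coro1a and Lcp1 each have several of the 13 promoters, and those of Tmsb10 overlap. The 13 are therefore not separate genes, and nothing is read from this share. As a reference sequence, the stretch of the Actg1 promoter with the CArG box (81 to 90 bases before the start) is chr11:120348541-120348620, minus strand, with the box in capitals.
Actg1 promoter: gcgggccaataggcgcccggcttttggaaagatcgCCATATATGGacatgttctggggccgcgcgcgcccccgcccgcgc
Srf itself was detected in 1 cell, OVA-16, at 2.96 TPM, a library in which Actg1 was at 0.113 TPM. The match is a description of letters, not of binding.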

How the data were processed

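The authors deposited 1 table of TPM values, 1 column per cell, from SMART-seq2 libraries of cells collected singly in tubes, per the labels' protocols. HISAT2 2.1.0, featureCounts 1.6.4 and StringTie 1.3.5 and the build GRCm38 are listed, per the submitters' processing notes, without roles. TPM keeps no read number, so depth per library is unknown. The 3 transgene entries were at 0, no columns were identical, and doublets were not called.

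From these values, differences of mean log2(TPM + 1), OVA minus nothing, were computed with Python 3.11.15 and pandas 2.3.3, a scale that understates changes of low genes. The difference calculation was checked on deposited values permuted over cells, with known shifts added. A difference of means must return such shifts, so the check covers the arithmetic only. Shares carry exact 95% intervals. Positions are from GENCODE M21. Size factors were medians of ratios over 11 genes found in 26 or more cells. The members and gene lists were chosen with earlier results of these data known. From each role in the wider list the 2 kept genes with the largest absolute difference are named. Of the 81 genes compared with Actb, the 5 most correlated are named. The genes of 1 role are not reported here. Copies of members and Srf were named after seeing values.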

Additional observations from a re-analysis of the deposited data

Results flagged for a closer look

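In the 8 nothing cells, 6 of the 7 members detected there had 1 cell far from the others, by a gap to the next cell of more than 0.526 of the group's whole range. The nominal rate of about 1 group in 20 by chance does not apply here, because most of these values were below detection. A gene detected in a single cell always meets this criterion, with a gap equal to the whole range. This held for Actb, Pfn1, Cfl1, Arpc2 and Coro1a, so nothing is read from their being picked out. Actg1, detected in 3 nothing cells, had a gap of 0.562 of the range. The cell nothing-4 stood apart with Actg1 at 66.9 TPM, Cfl1 at 5.40 TPM and Arpc2 at 30.6 TPM. The cell nothing-7 stood apart with Actb at 37.6 TPM and Coro1a at 45.1 TPM, and nothing-5 with Pfn1 at 1.99 TPM.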

How the results depend on the processing

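No paired analysis was possible because the labels give no replicate numbers. The median difference of the kept members stayed above 0 in every setting run. The members were chosen on this contrast, and the thymosins, at 0 in every nothing cell, could not fall below it. Nothing is therefore read from the sign staying the same. The median of the members was 0.57 with no filter on low values and 0.50 without OVA cells 8 and 13 together, a subset chosen after seeing the data. With each cell left out it ranged from 0.83 (without OVA-8) to 1.30 (without nothing-4), and the number of members past 1 from 4 to 5. With a pseudocount of 10 that number was 2, and 2.45% of all kept genes were past 1. Without OVA cells 8 and 13 together it was 3, and 7.32% of all kept genes were past 1. With detection in at least 10 cells only Actb was left, giving 1 member and a median of 3.31, since fewer genes pass. All genes passing there had a median of 1.14, and 56.0% of them were past 1. With each cell left out the wider list's median ranged from -0.04 to 0.55, OVA cells with a member from 13 to 14 and nothing cells with a member from 3 to 4. Without libraries with 3 or more neutrophil markers, 7 of 12 OVA and 2 of 6 nothing cells had a member. Among libraries with at least 1000 genes, 8 of 9 OVA and 4 of 4 nothing cells had one. Fewer cells are counted in both subsets. Actg1 turned from -0.95 to 0.34 with size factors, under which all kept genes had a median of 0.48 in place of 0.10. Coro1a and Lcp1 were at -0.25 and -0.28 without libraries over 90% spike-ins. Unknown depth limits every value of 0.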
